A study of Mus musculus with 10 samples.

Results

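The genes described here encode, in the nucleus, the subunits of respiratory complexes II, III, IV and V and of cytochrome c. They were taken by symbol from the deposited table: the 4 Sdh genes, Cyc1, Cycs, and all entries whose symbol starts with Uqcr, with Cox4 to Cox8, or with Atp5. This gave 49 of 24470 gene entries, namely 4 of complex II, 9 of complex III with Cyc1, Cycs, 18 of complex IV and 17 of complex V. RNA came from testes of C57BL/6 mouse embryos at E12.5. The paired gonads of each of 5 embryos, with the mesonephros attached, were cultured for 48 h on agar, 1 with 75 µM of the glycogen phosphorylase inhibitor GPI (CP 316819) and the other with its vehicle, DMSO. Medium was partly replaced every 24 h, and the gonad was dissected off the mesonephros before extraction, so each of the 10 libraries measures a whole gonad with all of its cell types. The inhibitor was given to the entire organ and was not directed at a cell type.

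Complex II oxidizes succinate and passes its electrons to ubiquinone, complex III hands them to cytochrome c, and complex IV transfers them to oxygen. Complex V, the ATP synthase, uses the proton gradient so formed to make ATP. Complex II is encoded wholly in the nucleus, whereas complexes III, IV and V also hold subunits made inside mitochondria. Several complex IV subunits exist as isoforms from separate genes, with forms known from muscle, lung or adult testis. Glycogen phosphorylase frees glucose units of stored glycogen, which feeds glycolysis and through it the respiratory chain. The comparison asks how RNA of the respiratory chain stood in gonads cultured with an inhibitor of that enzyme.

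Libraries held 10203679 to 15635322 counts, and the 49 genes together made up 0.251% to 0.311% of the counts of a library. Levels below are normalized counts, that is, deposited counts scaled by TMM factors to a common library size, and are listed for mice 1 to 5 in that order. Coordinates are those of mm10. Log2 fold changes are of GPI over vehicle, from a fit that pairs the gonads of an embryo. A gene is said to be called when its adjusted p was under 0.05. The labelled tissue was checked by its markers. Summed over 10 Sertoli cell markers, normalized counts were 3510.2, 6227, 4215, 4838 and 5447 with vehicle and 4656, 7803, 8208, 9792 and 8391 with GPI, with Gstm6 the most abundant, and 8 of the 10 were higher with GPI. The 10 germ cell markers summed to 995, 2100.2, 1265, 1720.2 and 659.8 with vehicle and 141, 121, 52.3, 47.3 and 111 with GPI. Dazl was their most abundant gene, 5 of 6 tested were lower, and the groups did not overlap. All libraries thus carried testis markers, and the levels of marker RNA differed between the groups. In RNA of a whole gonad, fewer cells of a type and less RNA per cell cannot be told apart.

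Most of the 49 genes stood at nearly the same level in both groups, and where they moved, small increases with GPI prevailed. Of the 49, 45 passed the filter on low counts and were tested. Of these, 8 were called higher with GPI (17.8% of those tested), namely Cox6c, Cox7a2l, Cox6b2, Uqcrq, Atp5j, Atp5c1, Atp5md and Atp5g3, against 11.1% of all 13941 genes tested. Only Cox4i2 was called lower, which is 2.22% of those tested against 11.9% of all genes. It passed the filter through its vehicle libraries. The test was edgeR's quasi-likelihood test, and its p values were adjusted by the Benjamini-Hochberg method over all genes tested. The median log2 fold change of the 45 was 0.11, and that of all genes tested was 0.02. Within single mice the median of the 45 was 0.18, 0.01, 0.07, 0.14 and 0.18, above 0 in 5 of 5. No median of all genes by mouse is given beside these, and mouse 2 lay below the 0.02 of all genes in the paired fit. With GPI, each library exceeded each vehicle library for 4 of the 45 genes (8.89%, against 7.07% of all genes tested), and each lay below for 0 of them (against 9.05%).

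Most differences were small in size. For 39 of the 45 genes (86.7%) the 95% interval of the difference lay within 1.5-fold in both directions, which held for 50.6% of all genes tested. The width of an interval depends on the counts, and 42 of the 45 had a mean over 50 normalized counts. The 2 shares were not compared at like abundance. The 36 genes that were not called had log2 fold changes from -0.42 to 0.30, 26 of them above 0. The summed level of the 49 was 30848, 32418, 31939.8, 33618 and 32783 normalized counts with vehicle and 33815, 33517, 33416, 38282 and 36430.1 with GPI, 1.03 to 1.14 times the vehicle value of the same mouse. The 4 genes not tested, Cox6a2, Cox7b2, Cox8b and Cox8c, are isoforms of complex IV with few or no counts. The count of genes called higher fell to 5, 2 and 5 without mice 3, 4 and 5 (11.1, 4.55 and 11.1% of those tested, against 6.93, 7.34 and 9.04% of all genes). It fell to 5 with total counts alone as the scaling (11.1%, against 8.88%) and to 4 with a trend on transcript length and GC content removed (8.89%, against 10.2%). Without mouse 4 and with that trend removed, the share of the members thus lay below that of all genes. The lower call was lost without mice 2, 3, 4 or 5. The median was 0.0208 with the length and GC trend removed, 0.0626 with total counts alone and 0.0681 without mouse 1, where that of all genes was -0.00421, -0.0318 and 0.00243. With that trend taken from the longest transcript of any kind, the choice first made, 6 genes were called higher (13.3%, against 10.2%) and 1 lower, with a median of 0.0538 (all genes -0.00325). The tested members are short, with a median transcript length of 731 bases against 3158 for the 13148 tested genes whose length was matched.

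**Figure D1:**
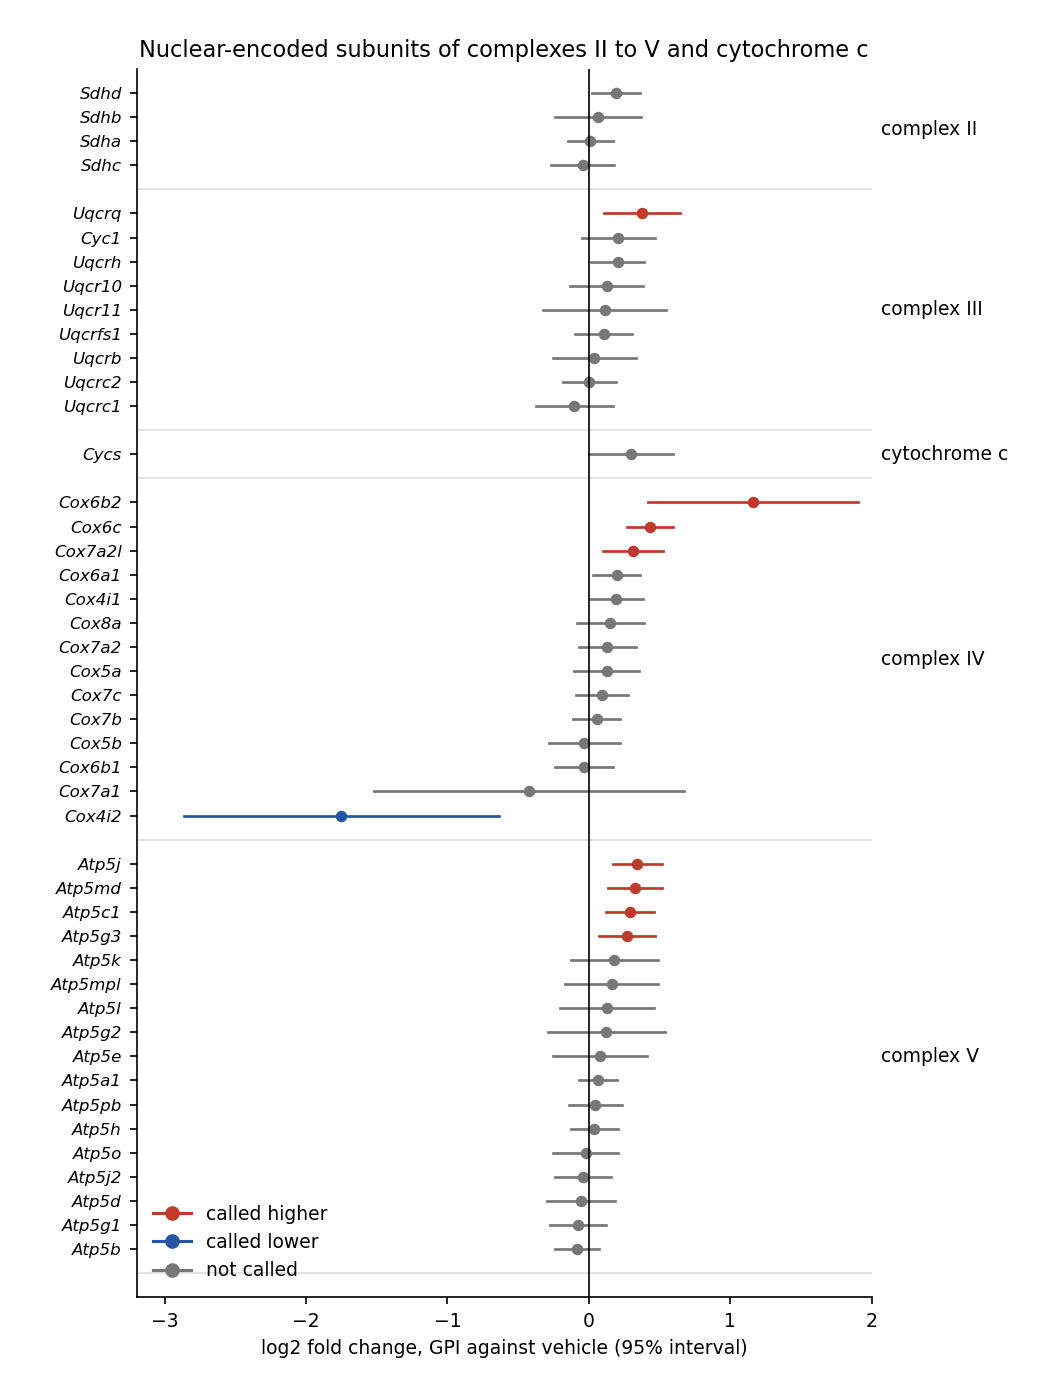
Log2 fold change of GPI against vehicle (x axis, points) with its 95% interval (lines) for the 45 tested genes, ordered within each complex. Red genes were called higher and the blue gene, Cox4i2 at -1.75, lower. All other points lie between -0.42 and 1.16.

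Complex II showed no called gene among its 4. Its summed level was 3618, 3335, 3570.0, 3723 and 3839.8 normalized counts with vehicle and 3592, 3654, 3549, 4142 and 3941 with GPI, higher with GPI in mice 2, 4 and 5 and slightly lower in mice 1 and 3. The smallest p belonged to Sdhd (Entrez gene 66925, chr9:50596340-50603849), a membrane anchor of the complex, which also had the most counts per length (795 per kb with vehicle). It stood at 995, 783, 999, 1103 and 1010.2 with vehicle and 1093, 996, 1009.8, 1286 and 1204 with GPI. The GPI value was the higher one in 5 of 5 mice, by as little as 1009.8 against 999 in mouse 3, and the groups overlapped. Its log2 fold change of 0.19 ± 0.08 (SE) missed the threshold (edgeR's quasi-likelihood test, adjusted p = 0.0945). Sdha, which binds succinate and is named for that role after its values were seen, gave 1882 ± 122 with vehicle and 1897 ± 147 with GPI (SD, n = 5). Its log2 fold change was 0.01 ± 0.07, near 0. Sdhb and Sdhc, an iron-sulfur subunit and a membrane anchor, had log2 fold changes of 0.07 and -0.04. Beside the 0 called by edgeR, 1 gene of the complex had an unadjusted p under 0.05, and DESeq2 and limma-voom called 0 each. The median of the 4 log2 fold changes, 0.04, lay near 0 and took either sign, from -0.0123 to 0.0858 over 16 alternatives. It was -0.0123 with total counts alone, -0.00256 with the length and GC trend removed and -0.00327 without mouse 1, where the median of all genes moved from 0.02 to -0.0318, -0.00421 and 0.00243. The 95% intervals of all 4 genes lay within 1.5-fold.

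In complex III, 1 of 9 genes was called higher (11.1%, against 11.1% of all genes). Uqcrq (Entrez gene 22272, chr11:53427922-53430831), a small subunit of the complex, read 190.5, 230.3, 182, 193 and 252 normalized counts with vehicle and 212, 263, 263, 319.8 and 307 with GPI. Each mouse had more with GPI, although the vehicle value of mouse 5 exceeded the GPI value of mouse 1. This gave a log2 fold change of 0.38 ± 0.12 (edgeR's quasi-likelihood test, adjusted p = 0.0427). The call was lost without mice 3, 4 or 5 and in 6 other alternatives, with adjusted p from edgeR, DESeq2 or limma-voom of 0.0401 to 0.193 over all 16. Uqcrh, the hinge protein of the complex and its most abundant nuclear RNA per length, stood at 995, 990.4, 948, 1014 and 1209 with vehicle and 1311, 1183, 1055, 1278 and 1120.1 with GPI. It was higher with GPI in mice 1 to 4 and lower in mouse 5, whose vehicle value was the highest of its group. Its log2 fold change of 0.21 ± 0.09 was not called (edgeR's quasi-likelihood test, adjusted p = 0.110), but it was called without mouse 5 (0.29, adjusted p = 0.0367 by edgeR, from a range of 0.0367 to 0.460 over the alternatives).

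The remaining 7 genes of complex III had log2 fold changes from -0.10 for Uqcrc1 to 0.21 for Cyc1. Uqcrc1 is a core protein of the complex and, named for its role after its values were seen, gave 237 ± 32.7 with vehicle and 219.9 ± 26.1 with GPI (SD, n = 5). Cyc1 is the subunit that passes electrons on to cytochrome c, and Uqcrfs1 (0.11) the Rieske iron-sulfur protein. The summed level of the complex was 3778, 3886, 3823, 3722 and 4142 with vehicle and 3969.9, 4071, 3895, 4572 and 4455 with GPI. It was higher with GPI in 5 of 5 mice, 1.02 to 1.23 times the vehicle value of the same mouse, although the ranges of the groups overlapped. Cytochrome c itself, encoded by Cycs (Entrez gene 13063, chr6:50562563-50566474), carries electrons from complex III to complex IV and also acts in cell death outside mitochondria. It read 144, 211, 137, 203 and 184 with vehicle and 153, 197, 210.1, 281 and 246 with GPI, higher in 4 of 5 mice. Mouse 2 went the other way. The log2 fold change of 0.30 ± 0.14 was not called (edgeR's quasi-likelihood test, adjusted p = 0.145, unadjusted p = 0.0491), nor did DESeq2 or limma-voom call it. Cycs has many processed copies in the mouse genome, and pairs that map equally well to a copy are left out by the default of the counting tool.

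In complex IV, 3 of 14 tested genes were higher (21.4%) and 1 was lower (7.14%), against 11.1% and 11.9% of all genes. Cox6c (Entrez gene 12864, chr15:35931976-35938246), a small membrane subunit, had the smallest p of the 45. It stood at 868, 856, 881, 1058 and 1019 normalized counts with vehicle and 1130.4, 1244, 1094, 1438 and 1433 with GPI. The groups did not overlap, the highest vehicle library being 1058 and the lowest GPI library 1094. A log2 fold change of 0.43 ± 0.07, 1.35-fold, was called in 16 of 16 alternatives (edgeR's quasi-likelihood test, adjusted p = 0.000748). Cox7a2l (Entrez gene 20463, chr17:83501917-83514333), known for its part in joining complexes III and IV, ranged from 679 to 725 with vehicle, a narrow span. With GPI it stood at 1057, 777, 676, 933 and 953. It was higher in 4 of 5 mice, and lower in mouse 3, for a log2 fold change of 0.31 ± 0.10 (edgeR's quasi-likelihood test, adjusted p = 0.0351). The call was lost without mice 1, 4 or 5, with total counts alone and with the length and GC trend removed by either choice of length (adjusted p from 0.0232 to 0.146 over 16 alternatives run in edgeR, DESeq2 or limma-voom). Summed over the complex, normalized counts were 7451, 7633, 7812, 8393 and 7856 with vehicle and 9055, 8204, 8417, 9524 and 9163 with GPI. Every mouse had more with GPI, 1.07 to 1.22 times the vehicle value, and the highest vehicle value lay above the lowest GPI value. Without mouse 4, where 7.34% of all genes were higher, 1 gene of the complex was called higher.

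The pair Cox6b1 and Cox6b2 encodes alternative forms of a subunit on the outer face of the complex, the former in most tissues and the latter known from adult testis and sperm. Cox6b2 (Entrez gene 333182, chr7:4751792-4753094) was low, at 13.3, 14.3, 23.4, 18.9 and 22.1 normalized counts with vehicle, and 60.4, 43.0, 28.5, 40.0 and 38.1 with GPI. The groups did not overlap, and mouse 3 showed the smallest and mouse 1 the largest increase, for a log2 fold change of 1.16 ± 0.34, 2.23-fold (edgeR's quasi-likelihood test, adjusted p = 0.0258). It was not called without mice 1, 2 or 4 (adjusted p = 0.101, 0.0739 and 0.0696 in edgeR, within 0.00830 to 0.101 over the 16 alternatives). Cox6b1 read 432, 490.4, 521, 442 and 502 with vehicle and 467, 426, 468, 487 and 481 with GPI, with a log2 fold change of -0.03 ± 0.10 that was not called (edgeR's quasi-likelihood test, adjusted p = 0.843) and was 0.00712 without mouse 2. Per length, Cox6b2 made up 3.89% ± 0.753 of the pair with vehicle and 8.68% ± 2.26 with GPI (SD, n = 5). Its raw counts, 12 to 29 per vehicle library and 30 to 54 per GPI library, limit the precision of the fold. Germ cell markers fell in the same libraries while Cox6b2 rose. The part of germ cells in the Cox6b2 difference was not tested.

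**Figure D2:**
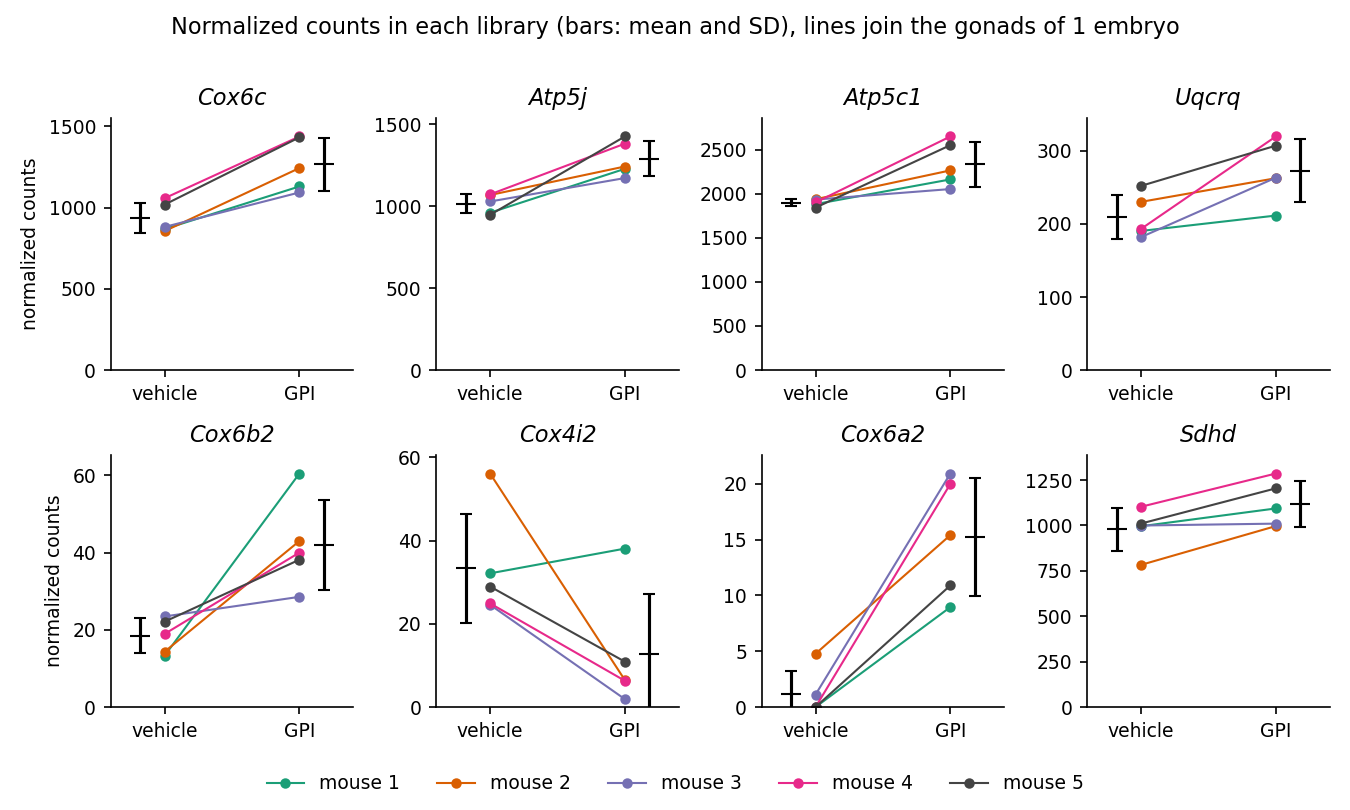
Normalized counts (y axis, from 0) of 8 genes in each of the 10 libraries, with a line joining the gonads of 1 embryo and the mean and SD of each group (n = 5) beside them. Cox6c, Atp5j, Atp5c1, Cox6b2 and Cox6a2 have no vehicle library above a GPI library. For Cox4i2, mouse 1 goes from 32.1 to 38.1 while the other 4 mice go down.

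Cox4i1 and Cox4i2 encode forms of another subunit of complex IV. The second is known from lung and from cells around small vessels and for its link to oxygen supply. Cox4i2 (Entrez gene 84682, chr2:152754173-152765037) was the only one of the 45 genes called lower. It stood at 32.1, 56.1, 24.6, 24.9 and 29.0 normalized counts with vehicle and 38.1, 6.49, 1.90, 6.31 and 10.9 with GPI. Mice 2 to 5 fell, whereas mouse 1 had slightly more with GPI, so the groups overlapped. The log2 fold change was -1.75 ± 0.52, or 29.7% of the vehicle level (edgeR's quasi-likelihood test, adjusted p = 0.0250). Without mice 2, 3, 4 or 5 the call was lost (adjusted p = 0.110, 0.0869, 0.0748 and 0.0545 in edgeR), as it was without the pairing of gonads (0.0820), within 0.00235 to 0.110 over 15 alternatives. It passed the filter on low counts through its vehicle libraries, which held 22 to 47 raw counts, against 2 to 34 in GPI libraries. The fold and the call carry that limit. The gene could not be tested where at least 10 counts were required in every library. Cox4i1 read 580.2, 444, 604, 639 and 645 with vehicle and 694, 556, 611, 758 and 706 with GPI, higher in 5 of 5 mice. A difference of 0.19 ± 0.09 in log2 was not called (edgeR's quasi-likelihood test, adjusted p = 0.131). Cox4i2 made up 5.96% ± 3.29 of the pair per length with vehicle and 1.89% ± 2.05 with GPI.

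Endothelial markers moved beside Cox4i2. All 6 were called lower, led in abundance by Cdh5, and none was at 0. They summed to 7082, 7423, 6633, 7759.5 and 6835 normalized counts with vehicle and 772, 937, 628, 517 and 649 with GPI. In mouse 1, in which Cox4i2 did not fall, they stood at 772 with GPI against 7082 with vehicle. These are markers of endothelium, and no list was made for the cells around small vessels. The part of either cell type in the Cox4i2 difference was not tested. Cox4i2 overlaps Bcl2l1 on the opposite strand, and counting ignored strand. Bcl2l1 itself had a log2 fold change of 0.04 ± 0.14, not called (edgeR's quasi-likelihood test, adjusted p = 0.892). Ndufa4l2, a gene of the NDUFA4 family known to respond to low oxygen, lies outside the 49. It stood at 233, 172, 119, 203 and 219 with vehicle and 273, 13.8, 11.4, 4.21 and 17.4 with GPI, with mouse 1 apart here as well. Its log2 fold change was -2.80 ± 0.57, lower in 4 of 5 mice (edgeR's quasi-likelihood test, adjusted p = 0.00274). It was -3.92 without mouse 1, -3.32 in DESeq2, -1.81 in limma-voom and -1.60 without the pairing of gonads, where it was not called (adjusted p = 0.137 in edgeR, within 3.66e-07 to 0.137 over 15 alternatives).

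Cox6a1 is the general and Cox6a2 the heart and muscle form of another subunit. Cox6a1 (Entrez gene 12861, chr5:115345654-115348955) had the most counts per length among the nuclear genes of complex IV, 2696 per kb with vehicle and 3089 with GPI. It read 1276, 1686, 1592, 1643 and 1501 normalized counts with vehicle and 1639, 1673, 1709, 2031 and 1768 with GPI, higher in 4 of 5 mice, with a log2 fold change of 0.20 ± 0.08 that was not called (edgeR's quasi-likelihood test, adjusted p = 0.0815). It was called without mouse 2 and with the length and GC trend taken from the longest transcripts (adjusted p = 0.0316 and 0.0395 in edgeR, within 0.0316 to 0.272 over the alternatives). Cox6a2 (Entrez gene 12862, chr7:128205435-128206366) was set aside by the filter. Its raw counts were 0, 4, 1, 0 and 0 with vehicle and 8, 19, 22, 19 and 10 with GPI, so the groups did not overlap. It was tested only with no filter on low counts, with the filter given the design matrix and without mouse 1, where it passed through the GPI libraries alone. With 3 of 5 vehicle libraries at 0, no fold change or test is given for it. It had at most 22 counts in each library, and per length it reached 0.715% ± 0.230 of the pair with GPI against 0.0592% ± 0.103 with vehicle. Itgad, which overlaps its end on the opposite strand, had 0 counts in each vehicle library and 0 to 9 in GPI libraries. Of 6 muscle markers, 3 passed the filter and all 3 were higher with GPI. These were Myh6, the most abundant, with a log2 fold change of 2.99, Myh7 with 1.76 and Tnnt2 with 1.63. The list summed to 112, 285, 209, 177 and 222 with vehicle and 693, 940.4, 1084, 1517 and 1237 with GPI. Ckm, Acta1 and Actc1 were at or near 0 in most libraries, with at most 22 counts. The part of such cells in the Cox6a2 counts was not tested.

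Among the Cox7 and Cox8 forms no further gene was called. Cox7a2, the general partner of the muscle form Cox7a1, stood at 483, 399, 488, 569.8 and 499 with vehicle and 541, 483, 499, 542 and 594 with GPI, with a log2 fold change of 0.13 ± 0.09. Cox7a1 was low, at 24.4, 13.1, 12.3, 12.9 and 5.33 and 4.48, 8.11, 10.5, 13.7 and 10.9, and the groups overlapped. Its log2 fold change of -0.42 ± 0.51 was 0.00409 without mouse 1. Cox7b, on the X chromosome, read 1033, 814, 906, 1047 and 930.2 with vehicle and 987, 927, 995, 1008 and 977 with GPI, a log2 fold change of 0.05 ± 0.08 that turned to -0.06 with the length and GC trend removed. Its relative Cox7b2, known from testis, had 0 to 3 counts per vehicle library and 0 to 1 per GPI library. Cox8a, the general form of the last small subunit, read 381, 394, 423, 353 and 396 with vehicle and 538, 360.0, 444, 430.3 and 408 with GPI, with a log2 fold change of 0.15 ± 0.11. The muscle form Cox8b had 0 to 4 counts per vehicle library and 0 to 14 per GPI library, the most in mouse 1 in both groups. Cox8c, known from testis, had 0 counts in all 10 libraries, which allows up to 3 counts per library, a limit for counting error alone. Cox5a, Cox5b and Cox7c, with log2 fold changes of 0.13, -0.03 and 0.09, complete the complex.

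Promoters were searched because many genes of the respiratory chain are known to share binding motifs of NRF1, of the ETS factor GABPA and of YY1. Windows from 250 bases before to 50 after the start were taken from RefSeq (GRCm38.p6) and matched by gene ID for 37 of the 49 genes. No window was matched for Atp5a1, Atp5mpl, Cox4i1, Cox4i2, Cox6a2, Cox6c, Cox8c, Cyc1, Sdhc, Uqcrb, Uqcrc2 or Uqcrq. On either strand, the NRF1 core GCATGCG was found in 9 of 37 genes (24.3%), against 4.01% of all 27025 genes with a window. The ETS motif CCGGAAG was found in 13 (35.1% against 9.93%), and the YY1 motif AAGATGGC in 3 (8.11% against 3.19%). The core ACGTG, known from factors that respond to low oxygen, was also searched and was found in 12 (32.4% against 21.8%). Motifs and windows were chosen after values were seen. The NRF1 core can match on both strands at overlapping positions. Of the 6 called genes with a window, Atp5j and Atp5md held a match to NRF1, ETS or YY1, and Atp5c1, Atp5g3, Cox6b2 and Cox7a2l held none of these. A match describes letters and does not show that a factor binds. The windows of Cox6a1, Cox6b1 and Cox6b2 are shown because Cox6b2 was called and its partner was not, a difference that was not tested, and because Cox6a1 is the most abundant nuclear RNA of complex IV per length. NRF1, ETS and YY1 matches are in capitals, 5′ to 3′ on the minus strand of each gene. Cox6a1 (chr5:115348909-115349208) holds an NRF1 core read on both strands and an ETS match, Cox6b1 (chr7:30626065-30626364) an ETS match, and Cox6b2 (chr7:4753045-4753344) none of the 3. The Cox6b2 window also overlaps Fam71e2.
Cox6a1: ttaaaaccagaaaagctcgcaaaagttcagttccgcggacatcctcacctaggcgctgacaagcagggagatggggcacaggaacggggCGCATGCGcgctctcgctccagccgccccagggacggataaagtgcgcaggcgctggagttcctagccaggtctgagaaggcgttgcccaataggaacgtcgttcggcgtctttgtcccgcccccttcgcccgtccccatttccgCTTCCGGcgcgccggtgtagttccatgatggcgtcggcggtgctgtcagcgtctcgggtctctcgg
Cox6b1: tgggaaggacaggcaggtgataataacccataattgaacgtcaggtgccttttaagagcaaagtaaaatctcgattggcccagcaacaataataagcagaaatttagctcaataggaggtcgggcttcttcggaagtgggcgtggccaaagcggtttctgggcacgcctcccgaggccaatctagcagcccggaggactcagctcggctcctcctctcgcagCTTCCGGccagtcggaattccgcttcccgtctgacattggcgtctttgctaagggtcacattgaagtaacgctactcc
Cox6b2: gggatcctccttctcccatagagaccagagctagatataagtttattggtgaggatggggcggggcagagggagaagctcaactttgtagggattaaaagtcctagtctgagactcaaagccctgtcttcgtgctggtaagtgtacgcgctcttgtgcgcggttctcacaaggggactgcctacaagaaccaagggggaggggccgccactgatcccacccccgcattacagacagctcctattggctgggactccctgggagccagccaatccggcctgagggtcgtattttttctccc

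In complex V, 4 of 17 genes were higher with GPI (23.5%, against 11.1% of all genes) and 0 lower. Atp5j (Entrez gene 11957, chr16:84827871-84835625), which encodes a part of the stalk that joins head and membrane, stood at 960.0, 1068, 1028, 1072 and 947 normalized counts with vehicle and 1228, 1242, 1171, 1381 and 1425 with GPI. The groups did not overlap, the highest vehicle library (1072) lying below the lowest GPI library (1171). The log2 fold change was 0.34 ± 0.08, 1.27-fold (edgeR's quasi-likelihood test, adjusted p = 0.00682), and it was called in 16 of 16 alternatives. Atp5c1 (Entrez gene 11949, chr2:10056030-10080510) encodes the rotating central shaft. It varied little with vehicle, at 1881, 1937, 1933, 1901 and 1841, and stood at 2161, 2264, 2052, 2648 and 2549.7 with GPI. Here too no libraries overlapped, and mice 4 and 5 rose most. The log2 fold change of 0.29 ± 0.08 (edgeR's quasi-likelihood test, adjusted p = 0.0143) was not called without mice 4 or 5 (adjusted p = 0.0814 and 0.0631 in edgeR, within 0.00779 to 0.0814 over the 16 alternatives). Atp5md, a small membrane subunit, had a log2 fold change of 0.33 ± 0.09, higher in 5 of 5 mice (edgeR's quasi-likelihood test, adjusted p = 0.0151). It was not called without mice 3 or 4 or with the length and GC trend removed (adjusted p = 0.0940, 0.0812 and 0.157 in edgeR, within 0.0128 to 0.157). The 95% intervals of all 17 genes lay within 1.5-fold. At an unadjusted p under 0.05 there were 4 higher and 0 lower, and DESeq2 and limma-voom called 4 higher and 0 lower each. Without mice 3, 4 and 5, where 6.93, 7.34 and 9.04% of all genes were higher, the count was 2, 1 and 2.

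Atp5g1, Atp5g2 and Atp5g3 encode the same mature c subunit, which forms the membrane ring. Atp5g3 was the most abundant nuclear RNA of complex V per length, at 1887 per kb with vehicle. It read 1210.3, 1589, 1241, 1342 and 1438 with vehicle and 1481, 1456, 1453, 1915 and 1941 with GPI, higher in 4 of 5 mice and lower in mouse 2. Its log2 fold change of 0.27 ± 0.09 lay at the edge of the threshold (edgeR's quasi-likelihood test, adjusted p = 0.0499) and was not called in 12 of 16 alternatives, among them those without mice 1, 3, 4 or 5 (adjusted p = 0.108, 0.140, 0.208 and 0.159 in edgeR, within 0.00577 to 0.208 over all). Atp5g1 read 507, 753, 701, 667 and 695 with vehicle and 575, 622, 685, 581 and 672 with GPI, with a log2 fold change of -0.08 ± 0.09. Atp5g2 was the lowest of the 3, at 69.8, 58.5, 94.9, 129 and 108 and 80.6, 97.3, 106, 97.8 and 107, with a log2 fold change of 0.12 ± 0.19 (-0.02 without mouse 2). Neither was called. Per length, Atp5g3 made up 60.4% ± 2.76 of the 3 with vehicle and 65.6% ± 3.80 with GPI, and Atp5g1 35.6% ± 2.29 and 30.6% ± 3.46, with no test of these shares. The catalytic head genes, named for their role after values were seen, gave 3768 ± 96.5 with vehicle and 3945 ± 192 with GPI for Atp5a1 and 3078 ± 289 with vehicle and 2909 ± 269 with GPI for Atp5b (SD, n = 5). Their log2 fold changes of 0.07 ± 0.06 and -0.08 ± 0.07 were not called (edgeR's quasi-likelihood test, adjusted p = 0.520 and 0.475). Among the other 9 genes of the complex, log2 fold changes ran from -0.05 to 0.18. Summed levels of the complex were 15858 to 17576 with vehicle and 17046 to 19763 with GPI, higher with GPI in 5 of 5 mice, though barely in mouse 2, and at most 1.12 times the vehicle value of the same mouse.

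Atp5j is shown with its promoter because it held all 3 motifs marked in capitals and rose with GPI in each mouse. RefSeq gives it a pair of starts. The window of the upstream start holds none of the 3 motifs. The window of the downstream start (chr16:84834927-84835226, minus strand) holds an NRF1 core read on both strands from base 104, a YY1 match from base 163 and an ETS match from base 190, in capitals. It lies within Atp5j and overlaps the start of Gabpa, which runs the other way and encodes the GABPA factor itself.
Atp5j: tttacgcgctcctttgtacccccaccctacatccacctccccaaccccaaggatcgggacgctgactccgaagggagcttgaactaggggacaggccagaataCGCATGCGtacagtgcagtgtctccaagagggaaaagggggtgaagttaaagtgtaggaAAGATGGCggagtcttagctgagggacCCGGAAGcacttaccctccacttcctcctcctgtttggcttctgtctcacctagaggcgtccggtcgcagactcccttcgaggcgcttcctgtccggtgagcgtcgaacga
Counting ignored strand, so reads of Atp5j and Gabpa in the 502 bases they share at their starts cannot be told apart. Gabpa stood at 4286, 3391, 3774, 3939 and 3406 with vehicle and 3072, 3229.9, 3652, 3184 and 3183 with GPI, lower in 5 of 5 mice, and its log2 fold change of -0.20 ± 0.08 was not called (edgeR's quasi-likelihood test, adjusted p = 0.0807). It was called lower with total counts alone and with the length and GC trend removed by either choice of length (adjusted p = 0.0204, 0.0232 and 0.0246 in edgeR, within 0.0204 to 0.241 over 16 alternatives). Atp5md shares only 9 bases with Taf5, on the opposite strand, where the genes end. Taf5 had a log2 fold change of -0.16 ± 0.10, also not called (adjusted p = 0.276 by edgeR's quasi-likelihood test). In all, 7 of the 49 genes overlap another entry: Atp5j, Atp5md, Cox4i2 and Cox6a2, and also Atp5pb with Wdr77, Uqcrc2 with Pdzd9 and Atp5b with a microRNA.

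**Figure D3:**
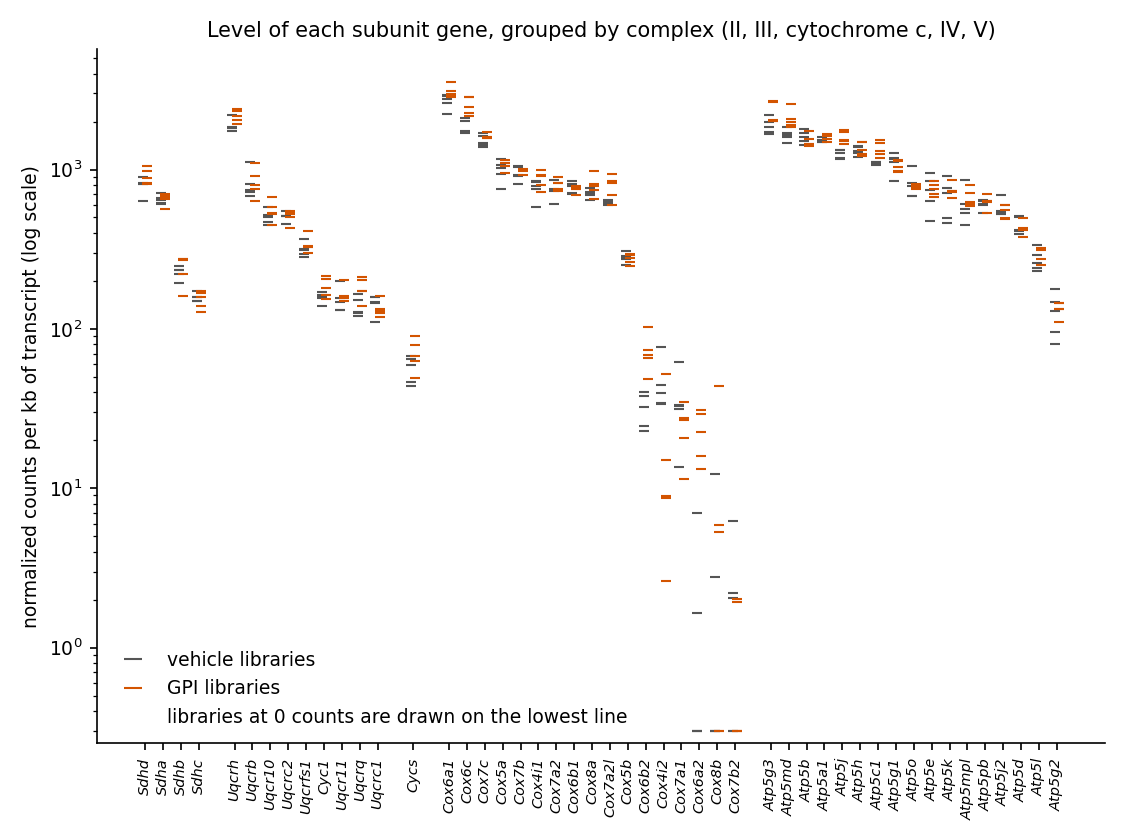
Normalized counts per kb of transcript (log axis) of 48 genes in each vehicle (grey) and GPI (orange) library, grouped by complex and ordered by level. Within complex IV the levels run from the Cox6a1 mean of 2893 per kb down to 1.44 for Cox7b2, and Cox8c, at 0 throughout, is left out.

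Per length, levels differed between genes far more than between the groups. The mean over both groups ran from 156 to 851 normalized counts per kb in complex II, from 138 to 2029.9 in complex III, from 29.4 to 2893 over the tested genes of complex IV and from 129.9 to 2084 in complex V. Cycs stood at 63.0. The tissue forms Cox6b2, Cox4i2 and Cox7a1 were the lowest tested genes of complex IV, at 51.6, 31.7 and 29.4. Lengths are those of the longest curated transcript and not of the form in use, which limits these ranks.

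The subunits encoded in the mitochondrial genome, which join the nuclear ones in complexes I, III, IV and V, had larger log2 fold changes than most nuclear genes. Of 13 tested, 9 were higher with GPI (69.2%, against 11.1% of all genes) and 0 lower, with a median log2 fold change of 0.45. The median was 0.285 without mouse 3 and 0.289 with the length and GC trend removed. The smallest p belonged to COX1, the catalytic subunit of complex IV, with a log2 fold change of 0.71 ± 0.08 (edgeR's quasi-likelihood test, adjusted p = 2.89e-05, higher in 5 of 5 mice, from 9.47e-14 to 0.000547 over 15 alternatives). ND2, ND3 and ND4, of complex I, followed with 0.67, 0.52 and 0.59. In complexes III and V, CYTB (0.25), ATP6 (0.27) and ATP8 (0.40) were not called and were lower with GPI in mouse 1. Without mouse 1 all 3 were called higher (adjusted p = 0.00284, 0.0407 and 0.0189 in edgeR, within 0.00284 to 0.393, 0.0407 to 0.583 and 0.0189 to 0.742 over 15 alternatives). CYTB was also called by limma-voom and with no filter on low counts. Counts per kb were very uneven within the mitochondrial genome. With vehicle they were 1337 for ATP6, 1510 for ATP8, 2293 for COX2 and 525 for COX3. COX1 and ND5 stood at 170493 and 201312. Pairs that map to several places are left out by default, and the part of this in the uneven counts was not tested. With mice 1 to 5 left out in turn, 13, 8, 6, 9 and 7 of the 13 were called higher. The shares of all genes called higher in those fits were 9.999, 10.2, 6.93, 7.34 and 9.04%. The 13 took up 10.6, 11.4, 10.6, 11.0 and 9.62% of counts with vehicle and 11.9, 14.5, 16.4, 13.5 and 14.2% with GPI. No vehicle library reached the lowest GPI library. With these genes left out before scaling, an alternative chosen after seeing the data, 7 of the 45 nuclear genes were called higher (15.6%, against 10.5% of all genes) and 1 lower (2.22%, against 12.3%). The difference between the mitochondrial and the nuclear genes was not tested.

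The list for complex I was made by symbol, from Ndufa, Ndufb, Ndufc, Ndufs and Ndufv. It therefore also holds Ndufa4, Ndufa4l2 and the pseudogene Ndufs5-ps, which are not counted as complex I subunits. Of the list, 4 of 39 tested were higher (10.3%, against 11.1% of all genes), namely Ndufc2 (0.42), Ndufc1 (0.40), Ndufb9 (0.33) and Ndufs6 (0.30), and Ndufa4l2 was lower (-2.80; 2.56%, against 11.9%), with a median of 0.14. With mice 1 to 5 left out in turn, 2, 4, 1, 0 and 1 were called higher. Of all genes, 9.999, 10.2, 6.93, 7.34 and 9.04% were called higher in those fits. Ndufs6 alone lost its call in 14 of 16 alternatives. Proteins of the mitochondrial ribosome had 4 of 78 genes higher (5.13%), Mrps23 (0.50), Mrpl41 (0.53), Mrps11 (0.45) and Mrpl16 (0.41), 0 lower, and a median of 0.09. DESeq2 and limma-voom also called 0 of them lower, and 0 had an unadjusted p under 0.05 in that direction. Leaving out mice 1 to 5 in turn gave 3, 1, 0, 0 and 3 called higher, beside the shares of all genes just given for complex I. Proteins of the cytosolic ribosome had 6 of 87 higher (6.90%) and 3 lower (3.45%), with a median of 0.11, and the smallest p belonged to Rpl15 (0.42), Rpl23a (0.32), Rpl10 (0.35) and Rpsa (-0.30). Here leaving out mice 1 to 5 in turn gave 3, 8, 3, 4 and 8 higher and 3, 2, 1, 0 and 1 lower. Of all genes, 12.1, 11.3, 9.63, 9.23 and 10.6% were lower in those fits, and the shares higher were those given for complex I. The medians of complexes II, III, IV and V were 0.04, 0.11, 0.13 and 0.08. With the length and GC trend removed, those of complexes III, IV and V were 0.0366, 0.0292 and 0.0123, and with total counts alone 0.0626, 0.0772 and 0.0263, where the median of all genes was -0.00421 and -0.0318. Without mouse 2 the medians of complexes III and V were 0.172 and 0.122, and without mouse 1 that of complex V was 0.0434. The medians of the comparison lists moved as well. With the length and GC trend removed they were 0.0849 for complex I, 0.0537 for the mitochondrial and 0.0342 for the cytosolic ribosome, and with total counts alone 0.0932, 0.0389 and 0.0560. Without mouse 1 the median of the cytosolic ribosome was 0.0368. Differences between these lists were not tested.

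**Figure D4:**
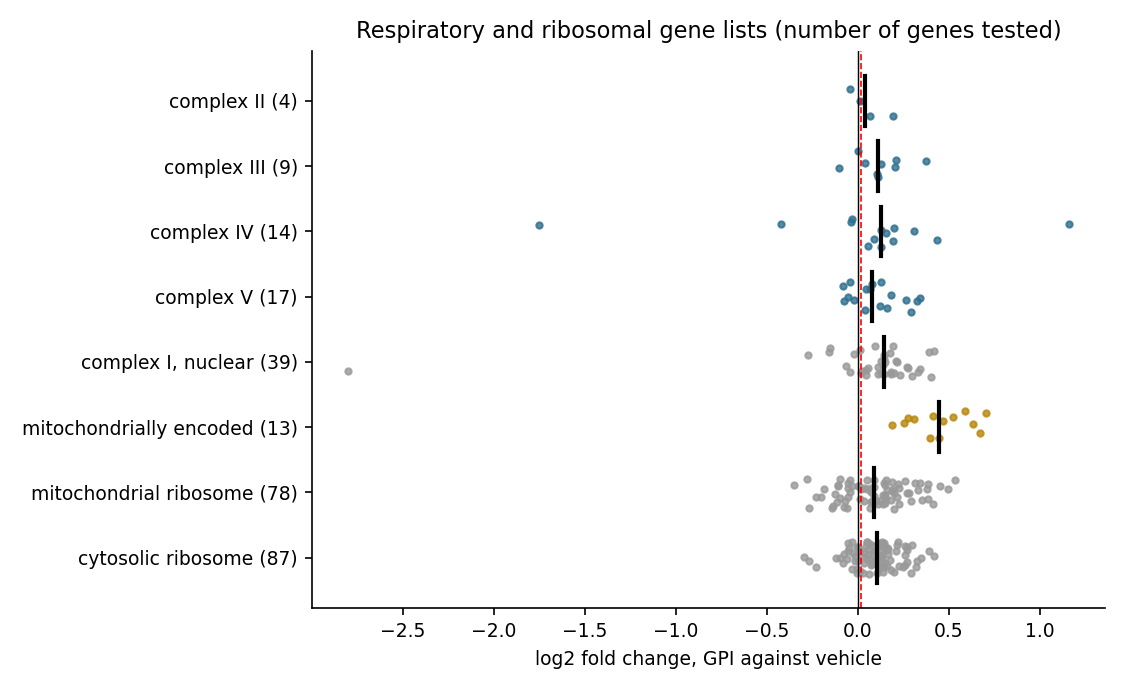
Log2 fold change of GPI against vehicle (x axis) for each tested gene (points, spread vertically for view) of 8 lists, with the list's median as a black bar and the median of all genes tested as a dashed line. The medians of the nuclear lists lie between 0.04 and 0.14, and that of the mitochondrially encoded subunits at 0.45. The complex II median took either sign over the alternatives.

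Assembly factors build the complexes without staying in them. Their 95% interval lay within 1.5-fold for 2 of 4, 2 of 6, 16 of 24 and 3 of 6 genes of complexes II, III, IV and V, and reached further for the others. For complexes II and III, 0 of 4 and 0 of 6 were called, with medians of 0.08 and 0.04. None of these 10 had an unadjusted p under 0.05, and DESeq2 and limma-voom called 0. Of 24 tested for complex IV, Cmc2 (0.70 ± 0.19, adjusted p = 0.0183) and Cox15 (0.29 ± 0.09, adjusted p = 0.0402) were higher in edgeR's quasi-likelihood test, each in 5 of 5 mice (8.33% of the 24, against 11.1% of all genes). Cmc2 was not called without mice 2 or 4 (adjusted p = 0.0648 and 0.0876 in edgeR, within 0.00655 to 0.0876 over 16 alternatives). Cox15 was not called without mice 1, 3 or 4 (0.129, 0.109 and 0.178) and in 6 other alternatives, DESeq2 among them (adjusted p = 0.0517, range 0.0399 to 0.178). Cox15 acts in making the heme of complex IV. The median was 0.08, and over the 16 alternatives the medians for complexes II, III and IV ran from 0.0302 to 0.136, -0.0146 to 0.0919 and 0.0299 to 0.141. Sco2 and Pet117 were not tested. Of the 6 genes for assembly and inhibition of complex V, 0 were called by edgeR, DESeq2 or limma-voom, and 2 had an unadjusted p under 0.05. Fmc1 came nearest (0.51 ± 0.18, edgeR's quasi-likelihood test, adjusted p = 0.0558, higher in 5 of 5 mice) and was called without mouse 2, without the pairing of gonads and with no filter on low counts (adjusted p = 0.0403, 0.0272 and 0.0451 in edgeR, within 0.0272 to 0.237 over 16 alternatives). Tmem70 (0.40 ± 0.14, edgeR's quasi-likelihood test, adjusted p = 0.0608, higher in 4 of 5 mice) was called without mouse 2 (adjusted p = 0.0104, within 0.0104 to 0.240). Leaving out mice 1 to 5 in turn gave 0, 2, 0, 0 and 0 of the 6 called higher, where 9.999, 10.2, 6.93, 7.34 and 9.04% of all genes were. Among 20 regulators of respiratory gene transcription, Ppargc1a, a coactivator of mitochondrial genes, was the only one called (5% higher and 0% lower, against 11.1% and 11.9% of all genes). Over the alternatives 0 to 2 of the 20 were called higher and 0 to 1 lower, where 6.93 to 11.5% and 9.23 to 14.1% of all genes were. Ppargc1a stood at 673, 801, 508, 628 and 633 with vehicle and 715, 862, 770.2, 885 and 1034 with GPI, higher in 5 of 5 mice, with a log2 fold change of 0.40 ± 0.11 (edgeR's quasi-likelihood test, adjusted p = 0.0137). It was not called without mice 3, 4 or 5 (adjusted p = 0.0866, 0.0590 and 0.0676 in edgeR, within 0.00456 to 0.0866 over 16 alternatives). The median of the 20 lay near 0 and took either sign over the alternatives, at -0.000612.

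Marker RNA of other cell types also differed between the groups. Fetal Leydig cells make androgens, a path that begins inside mitochondria with Cyp11a1. All 6 of their tested markers were higher with GPI, with a median log2 fold change of 2.20. Their sum was 1327, 2903, 4199, 2099.8 and 5659 with vehicle and 10246, 10759, 16667, 19062 and 13839 with GPI, Hsd3b1 was the most abundant, and Insl3 was near 0 in both groups. Macrophage markers were lower for 5 of 6, with sums of 386 to 648 with vehicle and 139 to 238 with GPI, and Mrc1 was the most abundant. Erythroid markers were lower for 6 of 8, with sums of 919 to 2789 and 362 to 889, led by Hbb-bs. Of 6 markers of interstitial progenitors, led by Pdgfra, 1 was higher and 3 lower, with sums of 12106 to 14508 and 12608 to 15410.4. Of 4 tested markers of the coelomic epithelium, led by Wt1, 0 were called by edgeR, DESeq2, limma-voom or an unadjusted p under 0.05, with sums of 8558 to 9803 and 7452 to 9259.5. Mesonephros markers, led by Pax8, summed to 58.7 to 691 and 98.1 to 272, and 0 of 1 tested was called by any of these. Among pre-granulosa markers, 1 of 3 tested, Wnt4, the most abundant, was lower, with sums of 945 to 1356 and 509 to 942. The part of these differences in the levels of the respiratory genes was not tested.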

How the data were processed

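RNA of 10 gonads was measured. According to the submitters' notes, pairs were aligned by STAR 2.5 to mm10, and featureCounts (Subread 1.5.0-p1) assigned them to genes. Counting ignored strand. The authors deposited raw counts, used here as they stand. The options the authors state for counting do not ask for pairs that map to several places, which the tool leaves out by default, so counts of subunits with near-identical pseudogenes may be too low.

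Genes were filtered with edgeR's filterByExpr (minimum count 10, total 15), scaled by TMM and tested on the whole table with edgeR's quasi-likelihood test (edgeR 4.0.16, R 4.3.3), with mouse and treatment in the design, Benjamini-Hochberg adjustment and an FDR of 0.05. The SE is the log2 fold change over the square root of F. Pairing comes from the labels, which give the same animal for both gonads; deviations from the group means correlated at 0.0600 within mice on average and -0.0147 between mice. Single-mouse log2 ratios used a prior of 2 normalized counts. Lengths are those of the longest GENCODE M21 transcript with a curated RefSeq match, found for all 49. The choice first made, the longest transcript of any kind, was replaced after values were seen because some lengths were far too long (Atp5l, 6310 bases). It is kept as an alternative and gave 6 genes called higher, 1 lower and a median of 0.0538, against 4, 1 and 0.0208 with the lengths used. Of all genes, 10.2% were higher and 12.6% lower with the former and 10.2% and 12.6% with the latter, with medians of -0.00325 and -0.00421. Likewise, filterByExpr was first given the design matrix and then the group; the first form, with 15010 genes tested, gave 7 higher (15.2%, against 9.73% of all genes), 1 lower (2.17%, against 12.2%) and a median of 0.105 (all genes -0.00185). Without molecular identifiers, reads can be copies of 1 molecule, so counting limits cover counting error only.

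The 49 genes and the lists were chosen with earlier results of these data known. Values by sample are given, per complex, for the 2 called genes with the smallest p in each direction (or the gene with the smallest p where none was called), the gene with the most counts per length and the isoform groups; other called genes are given by log2 fold change. From other lists, at most the 4 called genes with the smallest p are named; Ndufs6, Gabpa, ATP6, ATP8, CYTB, Fmc1, Tmem70, overlapping genes and members outside this rule were added after values were seen. Alternatives were DESeq2 1.42.0, limma-voom (limma 3.58.1), no pairing, DESeq2 size factors, total counts, no filter, a minimum of 10 counts in all libraries, a loess trend on length and GC content (span 0.5) removed with the pairing kept, each mouse left out, and, chosen after seeing the data, mitochondrially encoded genes left out, the first choice of lengths and the first form of the filter. The procedure was tested on simulated data (seed 1). Python 3.11.15, numpy 2.4.6, pandas 2.3.3, scipy 1.17.1 and matplotlib 3.10.9 were used.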

Additional observations from a re-analysis of the deposited data

Results flagged for a closer look

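In 7 of 96 groups of 5 libraries, 1 library lay far from the others. Chance alone gives about 1 in 20 groups where values are normally distributed. Groups with counts at or near 0, as for Cox6a2 and Cox8b, are not, so that rate does not hold for them. With GPI, mouse 1 stood apart for Cox4i2, at 38.1 normalized counts against 1.90 to 10.9 in the other 4 mice, for Ndufa4l2, at 273 against 4.21 to 17.4, and for Cox8b, at 15.7 against 0 to 2.10. Without mouse 1 the log2 fold change of Cox4i2 was -2.42. With vehicle, mouse 1 was also high for Cox8b, at 4.43 against 0 to 0.996. Mouse 2 was high with vehicle for Cox4i2, at 56.1 against 24.6 to 32.1, and for Cox6a2, at 4.77 against 0 to 1.12, which is 4 raw counts. Uqcrh was high with vehicle in mouse 5, at 1209 against 948 to 1014. What sets these libraries apart was not tested.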

How the results depend on the processing

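Over 16 alternatives, Cox6c and Atp5j were called in all 16. The number of nuclear genes called higher, 8, became 5 with total counts alone and 4 with the length and GC trend removed, and ran from 2 to 8 with 1 mouse left out. The lower call became 0 without the pairing of gonads and 0 where at least 10 counts were needed in every library, which sets Cox4i2 aside, and ran from 0 to 1 with 1 mouse left out. Without the pairing, 6 genes were called higher (13.3%, against 10.7% of all genes), and 11.5% of all genes were lower. Over the alternatives, 6.93 to 11.5% of all genes were called higher and 9.23 to 14.1% lower. The median log2 fold change of 0.11 became 0.0208 with the length and GC trend removed, and that of complex IV 0.0292, or 0.0433 with that trend taken from the longest transcripts. The single call in complex III became 0 in DESeq2, without pairing, with total counts alone, with the length and GC trend removed by either choice of length and with the filter given the design matrix, and 0 to 1 with 1 mouse left out. Complex IV had 1 to 3 higher and 0 to 1 lower with 1 mouse left out, and 0 lower without pairing or with at least 10 counts in every library. Complex V had 2 higher with the length and GC trend removed and 1 to 4 with 1 mouse left out. Mitochondrially encoded subunits had 6 to 13 of 13 higher over 15 alternatives; with them left out no value could be given. Complex II and Cycs had 0 calls by edgeR, DESeq2 and limma-voom in all 16, with 1 gene each at an unadjusted p under 0.05. Without the pairing the calls of Cox4i2, Uqcrq and Atp5g3 were lost among the 45 nuclear genes.

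For the subunit genes called, given by the rule or named for their role, 397 log2 fold changes under alternatives were counted. Of these, 341 kept direction and side of the threshold, 40 lost a call, 3 gained one and 13 changed sign, none of them called. Genes of the other lists and overlapping genes were not counted here, and some of them also gained or lost calls. The changed values were, for Atp5g2 -0.0188 without mouse 2, for Cox6b1 0.00712 without mouse 2, for Cox7a1 0.00409 without mouse 1, for Cox7b -0.0642 with the length and GC trend removed and -0.0604 with that trend taken from the longest transcripts, for Sdha -0.0402 with total counts alone, -0.0163 with the length and GC trend removed, -0.00139 with mitochondrially encoded genes left out, -0.0246 with that trend taken from the longest transcripts, -0.00297 with the filter given the design matrix, -0.0168 without mouse 2, -0.0265 without mouse 3 and -0.0105 without mouse 4. With 1 mouse left out, log2 fold changes ran from -0.0188 to 0.26 for Atp5g2, -0.0877 to 0.00712 for Cox6b1, -0.75 to 0.00409 for Cox7a1, -0.0265 to 0.0524 for Sdha. Other members, which these counts leave out, also took either sign and were never called. Over all settings Sdhb, Sdhc, Cox5b and Cox7c ran from -0.0589 to 0.194, -0.118 to 0.0201, -0.126 to 0.0387 and -0.0479 to 0.144. Uqcrb and Uqcrc2 ran from -0.101 to 0.174 and -0.0729 to 0.0478. Atp5e, Atp5h and Atp5j2 ran from -0.0783 to 0.225, -0.0613 to 0.0445 and -0.128 to 0.00121. Atp5o and Atp5pb ran from -0.118 to 0.0795 and -0.0529 to 0.122. Total counts alone moved the median of all genes from 0.02 to -0.0318. The cause of these differences was not tested. Where mice are left out, fewer samples enter the test. Low counts limit Cox4i2, Cox6b2, Cox7a1 and the 4 untested isoforms. RNA levels were measured, and neither protein nor respiration. With 5 mice and a whole-organ sample, small changes in 1 cell type may go undetected, and reads of overlapping genes could not be told apart.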
